A study of Rattus rattus with 23 samples.

Results

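Nasal respiratory epithelium exposed to hydrogen sulfide (H2S) was compared between a late and an early time of its regeneration. The members were chosen by their labels. Members and gene lists were chosen with earlier results of these data known. The late members were 4 exposed rats sampled 144 h after the first exposure (animals 23, 24, 25 and 26). The early members were 4 exposed rats sampled at 24 h (animals 11, 12, 13 and 14). Together they make up 8 of the 23 arrays in the series. All were male Sprague-Dawley rats that breathed H2S at 200 ppm through the nose only. The 144 h group had 5 daily sessions of 3 h, and the 24 h group had a single session of 3 h, so that time and number of exposures cannot be told apart. The treatment field of animal 14 gives 5 days of repeat although its title and time are those of the 24 h group, and values without it are given below. The same conflict holds for air animal 18 of the 24 h group and for exposed animal 6 of the 3 h group. Air-breathing rats at 144 h and at 24 h, 4 each, give the same interval without H2S, and exposed rats at 3 h (n = 4) and 6 h (n = 3) give the earlier course. The labels give the age as 60 days, whereas the design text of the series gives 10 weeks. The organism field reads Rattus rattus, whereas the strain and the taxonomy number are those of Rattus norvegicus. Each array held RNA of 1 animal, laser captured at the injured and regenerating site, amplified in 2 rounds and hybridized to an Affymetrix Rat230_2 array. The number of arrays limits the precision of every value.

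H2S blocks cytochrome c oxidase, the last complex of the respiratory chain, and a high dose kills cells of the nasal respiratory epithelium. This lining is built of multiciliated cells, secretory cells and basal cells that can divide. After such an injury, surviving cells spread and proliferate over the bare surface before they differentiate again, and the rebuilding of motile cilia is a late step because it needs new basal bodies, an axoneme and the transport machinery that assembles it.

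The RNA integrity number, a score of RNA intactness, was 4.8, 5.1, 4.5 and 1.7 in 144 h animals 23, 24, 25 and 26, against 5.5, 4.2, 2.6 and 10 in 24 h animals 11, 12, 13 and 14 (exact permutation p = 0.457, two-sided, n = 4 each). The log2 ratio of 3′ to 5′ signal of the Actb control probe sets, higher in shortened RNA, was 4.30, 5.09, 6.00 and 3.96 in 144 h animals, against 6.04, 7.64, 5.82 and 5.93 in 24 h animals (exact permutation p = 0.0857, where 0.0286 is the smallest p that 4 against 4 allows). Only animal 25 of the 144 h animals lay among the 24 h animals in this ratio. For the Gapdh control probe sets the ratio was 2.594, 2.618, 2.335 and 2.817 in 144 h animals. In 24 h animals it was 1.574, 3.858, 3.409 and 2.801 (exact permutation p = 0.514), so that all 144 h animals lay within the 24 h range. The part of RNA quality in the results was not tested. Epithelial genes gave high signals in every animal: Epcam ran from 11300 to 14700 in 144 h animals and from 11700 to 24900 in 24 h animals, and the axonemal gene Tekt1 from 2070 to 6180 and from 590 to 3440. Defining genes of other cells ranged widely. Omp, the olfactory marker protein, ran from 49.5 to 129 in 144 h animals and from 10.7 to 401 in 24 h animals, and the cartilage collagen Col2a1 from 12.1 to 90.2 and from 5.02 to 55. Acan, the aggrecan of cartilage, ran from 191 to 364 in 144 h animals and from 180 to 327 in 24 h animals, and Ptprc, the leukocyte antigen CD45, from 354 to 1470 and from 203 to 418. Fibroblast RNA was present on all 8 arrays, since Col1a1 ran from 28600 to 51200 in 144 h animals and from 9580 to 83100 in 24 h animals. Of 46 stroma and vessel markers, 43 were measured, and their summed signal was 190181 to 265202 in 144 h animals and 106661 to 366747 in 24 h animals. Of 55 leukocyte markers, 36 were measured, with summed signals of 19483 to 58035 and 23499 to 46419 in the same order of groups. Array 25 stood apart among the 144 h animals for squamous genes, array 13 among the 24 h animals for low ciliary genes, and both are followed through the results.

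No probe set passed the threshold between the exposed groups. Values were log2 of the deposited intensity plus 16, fitted with limma across all 23 arrays, and p was adjusted by the Benjamini-Hochberg method over 19822 probe sets with a threshold of 0.05. The count called was 0, or 0% of those tested, the smallest adjusted p in limma was 0.58, and 564 probe sets had an unadjusted p under 0.05, of which 262 were higher and 302 lower at 144 h. The 564 are a smaller share of the 19822 than the 0.05 that would be reached if no probe set differed. Limma's array weights give less weight to noisy arrays. They were 1.76, 2.78, 0.90 and 1.28 for 144 h animals 23, 24, 25 and 26. For 24 h animals 11, 12, 13 and 14 they were 1.27, 1.47, 0.898 and 1.23. Animals 25 and 13 thus had the lowest weights of their groups. Air animals 18 and 22 had 0.0732 and 0.202. With these weights, 59 probe sets (0.298%) passed, 8 higher and 51 lower at 144 h. All differences below are therefore given as values, and where a gene is said to pass, it passed with array weights only. For reading the counts of list members, 1.49% of the 11249 genes represented were higher at an unadjusted p under 0.05 and 1.85% were lower. The groups did not overlap, with all 4 animals on 1 side, for 1.38% of genes higher and for 2.94% of genes lower at 144 h.

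Genes of mitosis and cytokinesis were lower at 144 h than at 24 h nearly as a block. Of 44 listed genes, 35 were measured, and 34 of these had lower means at 144 h (52.7% of all genes did), with a median log2 difference of -1.79 against -0.02 over all genes. An unadjusted p under 0.05 was reached by 29 of the 35 on the lower side, and for 17 of the 35 the groups did not overlap. With array weights 17 of the 35 passed as lower and none as higher. Without animal 25, 22 of the 35 did not overlap (5.39% of all genes were lower without overlap), without animal 13, 30 of the 35 (4.65%), and without animal 14, 17 of the 35 (5.03%). In bulk RNA of this kind, fewer dividing cells and less of each transcript per cell cannot be told apart.

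Kinesins and the cyclins that drive entry into mitosis were among the lower genes. Kif2c, a kinesin that removes tubulin from microtubule ends, had signals of 20.5, 52.6, 118 and 108 in 144 h animals 23, 24, 25 and 26, against 461, 443, 367 and 866 in 24 h animals 11, 12, 13 and 14. Every 144 h animal was below every 24 h animal, and the log2 difference was -2.70 ± 0.66 (SE; limma adjusted p = 0.606). Ccnb2, a B-type cyclin, had signals of 238, 139, 502 and 381 in 144 h animals, against 1256, 1943, 609 and 4223 in 24 h animals, a log2 difference of -2.42 ± 0.56 (SE; limma adjusted p = 0.58). Its groups did not overlap either, and animals 25 and 13 came closest to each other. Ccnb1, the other main mitotic B-type cyclin, had signals of 169, 247, 559 and 362 in 144 h animals, against 1447, 1473, 490 and 1796 in 24 h animals. Here animal 25 lay above animal 13, so that the groups overlapped by this pair. Another probe set of Ccnb1 gave a log2 difference of -1.20 ± 0.60 (SE).

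Kinetochore and checkpoint genes followed the same order. Bub1b, a kinase of the spindle checkpoint, had signals of 10.3, 83.6, 166 and 146 in 144 h animals, against 623, 511, 227 and 1004 in 24 h animals (log2 difference -2.52 ± 0.58, SE). Knstrn, a kinetochore protein, had 62.5, 146, 190 and 186 in 144 h animals, against 868, 877, 264 and 2647 in 24 h animals (-2.53 ± 0.58). Cenpk, a subunit of the inner kinetochore, had 208, 193, 369 and 345 in 144 h animals, against 1204, 1328, 609 and 1985 in 24 h animals (-2.08 ± 0.48). For all 3 genes the highest 144 h animal was 25 and the lowest 24 h animal was 13, with no overlap.

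Genes that act at the end of mitosis or control its timing gave a similar picture. Ect2, which starts the contraction of the cleavage furrow, had signals of 120, 99.4, 655 and 394 in 144 h animals, against 1634, 1951, 690 and 2658 in 24 h animals, and animals 25 and 13 nearly met. Cdca3, which helps to trigger mitotic entry, had 271, 417, 830 and 468 in 144 h animals, against 1952, 3056, 1017 and 4092 in 24 h animals. Cdkn3, a phosphatase of cyclin-dependent kinases, had 197, 244, 464 and 375 in 144 h animals, against 1527, 1578, 927 and 3024 in 24 h animals. The log2 differences of Ect2, Cdca3 and Cdkn3 were -2.62, -2.24 and -2.35, and none of these groups overlapped. Mki67, the proliferation marker Ki-67, had 459, 296, 1293 and 552 in 144 h animals, against 2504, 2289, 944 and 4548 in 24 h animals, a log2 difference of -1.96 ± 0.63 (SE) with animal 25 above animal 13. Top2a, the topoisomerase that untangles sister chromatids, had 362, 363, 610 and 1230 in 144 h animals, against 1307, 2202, 800 and 3400 in 24 h animals, a difference of -1.55 ± 0.53 with animal 26 above animal 13. Another probe set of Top2a gave -0.98 ± 0.61.

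The largest mean differences of the list, singled out after their values were seen, were those of the kinesin Kif20a (-2.91) and the cyclin Ccna2 (-2.83). Kif20a had signals of 260, 49.9, 602 and 383 in 144 h animals, against 1993, 2287, 841 and 3558 in 24 h animals. A single measured member went the other way. The probe set of Aurkb, a kinase of the chromosomal passenger complex, had signals of 27714, 13408, 1940 and 4199 in 144 h animals, against 1861, 2478, 538 and 6505 in 24 h animals, a log2 difference of 1.88 ± 0.81 (SE, unadjusted p = 0.0303). Its groups overlapped, and in both of them it was lowest in the animal with the lowest ciliary level, 25 at 144 h and 13 at 24 h.

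**Figure D1:**
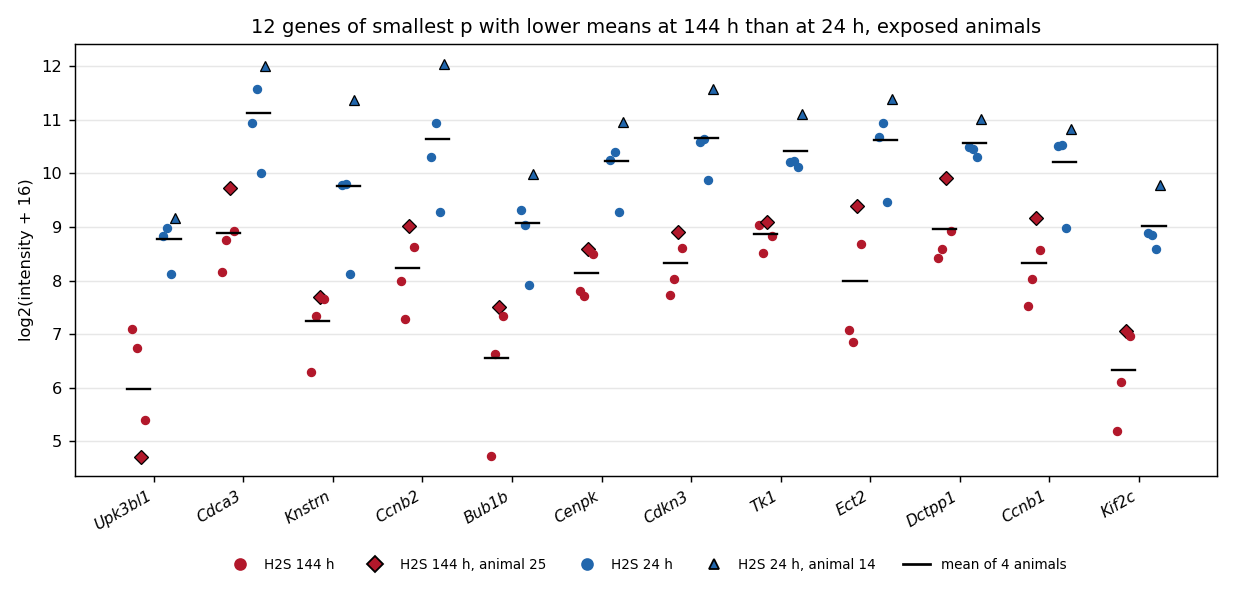
Log2(intensity + 16) of the 12 genes with the smallest unadjusted p among those lower at 144 h, in each exposed animal at 144 h (left of each pair) and 24 h (right), with lines at group means. Animal 25 is the highest of the 144 h animals for all genes but Upk3bl1 and animal 14 the highest of the 24 h animals for all 12, and only the groups of Ccnb1 overlap.

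Genes of DNA replication and S phase were lower as well, with smaller differences. Of 34 listed genes, 29 were measured, 28 had lower means at 144 h, and the median log2 difference was -1.09. An unadjusted p under 0.05 was reached by 12 of the 29, all lower, and 14 of the 29 did not overlap between groups. With array weights 7 of the 29 passed as lower.

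Tk1, the thymidine kinase of the salvage pathway, had signals of 511, 351, 530 and 439 in 144 h animals, against 1170, 1186, 1101 and 2203 in 24 h animals. The log2 difference was -1.55 ± 0.37 (SE; limma adjusted p = 0.58). The 144 h animals were close together and the 24 h animals were all at least as high as 1101, with animal 14 above the other 3. Of the other probe sets of Tk1, 1 gave -1.81 and another gave -0.70 with an SE of 0.68. Ccne2, the E-type cyclin that opens S phase, had 139, 112, 197 and 139 in 144 h animals, against 407, 593, 320 and 2180 in 24 h animals (-2.04 ± 0.53), without overlap.

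Subunits of the MCM helicase, which unwinds DNA at replication origins, were lower with partial overlap. Mcm4 had 283, 288, 507 and 254 in 144 h animals, against 921, 663, 482 and 1581 in 24 h animals, so that animals 25 and 13 overlapped (log2 difference -1.33 ± 0.33, SE). Mcm2 had 185, 235, 581 and 281 in 144 h animals, against 931, 466, 1016 and 1219 in 24 h animals, where animal 25 exceeded animal 12 (-1.51 ± 0.46). Dctpp1, which breaks down a modified dCTP and is not on the list, had 328, 369, 947 and 468 in 144 h animals, against 1426, 1392, 1254 and 2068 in 24 h animals (-1.61 ± 0.39), without overlap. The lower gene with the smallest p of all was Upk3bl1, a uroplakin-like membrane protein outside the cell cycle lists. It had signals of 121, 90.5, 10.3 and 25.9 in 144 h animals, against 440, 489, 263 and 558 in 24 h animals, a log2 difference of -2.79 ± 0.56 (SE; limma adjusted p = 0.58).

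A list level, taken per array as the average log2 value of the measured members less the average over all genes, places the exposed groups in the whole course. The mitosis level was -1.27 ± 0.50 at 3 h, -1.58 ± 0.48 at 6 h (n = 3), 0.58 ± 0.84 at 24 h and -1.12 ± 0.56 at 144 h after H2S (SD, n = 4 where not stated). In air it was -1.04 ± 0.35 at 24 h and -1.59 ± 0.23 at 144 h. Hence the 24 h exposed group lay above every other group mean, and the 144 h exposed group lay between the air groups' means. Per animal the mitosis level was -1.67, -1.53, -0.61 and -0.65 in 144 h animals 23, 24, 25 and 26, against 0.38, 0.81, -0.43 and 1.58 in 24 h animals 11, 12, 13 and 14, so that the groups did not overlap at the level of the list. The S phase level was -0.86 ± 0.20 at 144 h and 0.18 ± 0.58 at 24 h after H2S, against -1.04 ± 0.21 at 144 h and -0.90 ± 0.22 at 24 h in air. Animal 14 was the highest of the 8 exposed animals for 34 of 35 mitosis members and 25 of 29 S phase members.

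**Figure D2:**
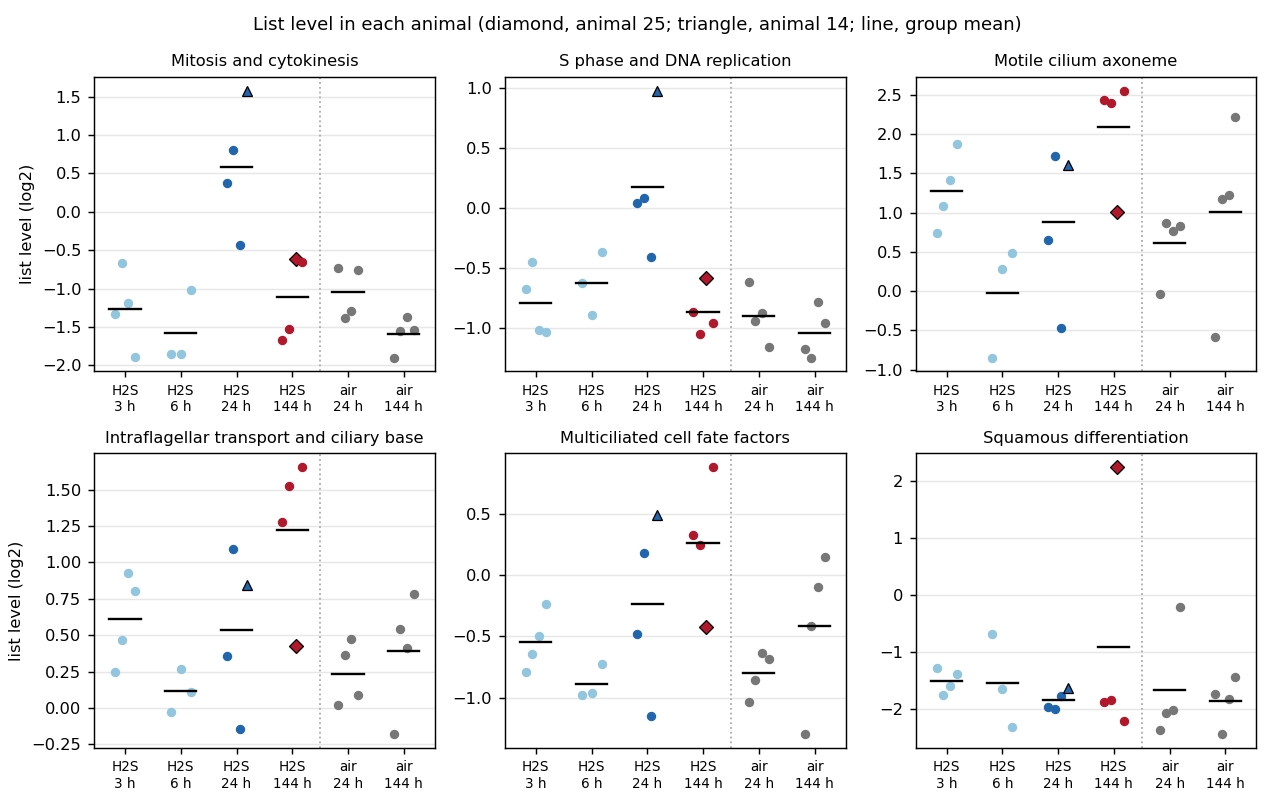
Level of 6 gene lists (log2 units relative to the mean of all genes on the array) in each animal, for exposed animals at 3, 6, 24 and 144 h and air animals at 24 and 144 h. The mitosis level of the 24 h exposed group averaged 0.58 and all other groups averaged below -1, the axoneme level was 2.40 to 2.56 in 3 of the 4 exposed animals at 144 h, and the squamous level of animal 25 (diamond) was 2.24.

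Genes of the motile cilium were higher at 144 h than at 24 h in every measured case, although no group of 4 was fully separated. The axoneme is the microtubule shaft of the cilium with its dynein arms, radial spokes and regulatory complexes. Of 54 listed axonemal genes, 28 were measured, all 28 had higher means at 144 h (47.3% of all genes did), and the median log2 difference was 1.24. An unadjusted p under 0.05 was reached by 12 of the 28, and the groups of 4 overlapped for all 28. No member passed with array weights on all 23 arrays.

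Drc3, a subunit of the nexin-dynein regulatory complex, had signals of 7551, 8495, 1803 and 10288 in 144 h animals 23, 24, 25 and 26, against 1680, 3274, 473 and 3176 in 24 h animals 11, 12, 13 and 14. Animals 23, 24 and 26 were above all 24 h animals, and animal 25 lay among the 24 h animals (log2 difference 1.78 ± 0.69, SE). The same arrangement held for Dnah2, a dynein heavy chain, with 6392, 4152, 1746 and 3683 in 144 h animals, against 860, 2415, 219 and 2157 in 24 h animals (1.83 ± 0.75). Ropn1l, a radial spoke protein, had 3340, 3045, 967 and 4634 in 144 h animals, against 639, 1898, 419 and 1243 in 24 h animals (1.52 ± 0.57). Armc3, an armadillo repeat protein on the list, had 2384, 2011, 808 and 1734 in 144 h animals, against 482, 862, 129 and 780 in 24 h animals (1.78 ± 0.71). In all 4 genes animal 25 was the lowest of its group and animal 13 the lowest of all 8.

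Genes of intraflagellar transport and of the ciliary base, which carry cargo along the growing cilium, were higher by smaller amounts. Of 38 listed genes, 33 were measured, all 33 with higher means at 144 h, and the median log2 difference was 0.80. An unadjusted p under 0.05 was reached by 6 of the 33, and none was without overlap. Dync2h1, the motor of return transport, had signals of 1375, 2310, 593 and 2123 in 144 h animals, against 569, 611, 295 and 1155 in 24 h animals (log2 difference 1.25 ± 0.49, SE). Bbs5, a subunit of the BBSome cargo adaptor, had 2043, 2094, 757 and 2888 in 144 h animals, against 466, 1821, 286 and 1082 in 24 h animals (1.26 ± 0.50). The BBSome subunits Bbs7 and Bbs2 differed by 0.90 ± 0.36 and 0.85 ± 0.37, and in all 4 genes animal 25 was the 144 h animal that lay among the 24 h animals. Another probe set of Bbs7 gave 0.44 ± 0.42.

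Factors that set the multiciliated fate and multiply centrioles were mixed. Of 20 listed genes, 14 were measured, 9 with higher and 5 with lower means, and the median log2 difference was 0.18. Deup1, which builds the deuterosome where centrioles are made, had 2624, 3057, 919 and 5189 in 144 h animals, against 580, 1400, 308 and 1398 in 24 h animals (1.67 ± 0.75, SE). Rfx3 and Rfx2, transcription factors of ciliary genes, differed by 1.27 ± 0.46 and 1.22 ± 0.55. Ccno, a cyclin-like protein needed for centriole multiplication, had 1894, 1064, 1039 and 7417 in 144 h animals, against 648, 976, 186 and 2559 in 24 h animals (1.39 ± 0.86), with animal 26 the highest of the 8 and animal 14 next. Foxj1, the master factor of motile cilia, had 1055, 1103, 578 and 1746 in 144 h animals, against 921, 1149, 601 and 1217 in 24 h animals. Its log2 difference of 0.15 ± 0.49 was smaller than its error, and it turned negative, -0.10, without animal 26 and, -0.06, without animal 13.

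The size of the ciliary difference moved with single animals in both directions. Per animal the axoneme level was 2.43, 2.40, 1.00 and 2.56 in 144 h animals 23, 24, 25 and 26, against 0.66, 1.73, -0.47 and 1.61 in 24 h animals 11, 12, 13 and 14. Without animal 25 the median difference of the axonemal genes was 1.56, 24 of the 28 did not overlap (5.66% of all genes were higher without overlap in this comparison of 3 with 4 animals), and 20 had an unadjusted p under 0.05 on the higher side (2.48% of all genes did in that fit). Without animal 13 the median was 0.75, none of the 28 had an unadjusted p under 0.05 (0.696% of all genes did on the higher side), and none was free of overlap (2.56% of all genes were higher without overlap). Animal 13 was the lowest of the 8 animals for 27 of the 28 members, had an RNA integrity number of 2.6, and had the highest summed signals of stroma and vessel markers (366747) and of cartilage and bone markers (187624) among the 8. Leaving out arrays with an integrity number under 3, among them animals 13 and 26, gave axonemal and transport medians of 0.55 and 0.31. The Actb ratio was arranged like the ciliary genes at 144 h, with animal 25 alone among the 24 h animals. The Gapdh ratio was not so arranged, since all 144 h animals lay within the range of the 24 h animals. Animal 26, with an RNA integrity number of 1.7, had the lowest Actb ratio of the 8. The part of stromal RNA in the ciliary difference was not tested. The transport genes had a median of 1.01 without animal 25 and 0.46 without animal 13.

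In the whole course, the axoneme level was 1.28 ± 0.48 at 3 h, -0.03 ± 0.72 at 6 h, 0.88 ± 1.02 at 24 h and 2.10 ± 0.73 at 144 h after H2S, against 0.61 ± 0.43 at 24 h and 1.01 ± 1.17 at 144 h in air. The 144 h exposed mean was the highest of the 6, and the range of the air animals at 144 h, -0.59 to 2.22, overlapped with it. The transport level was 1.22 ± 0.55 at 144 h and 0.54 ± 0.55 at 24 h after H2S, against 0.39 ± 0.41 at 144 h and 0.24 ± 0.22 at 24 h in air.

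Among the 12 genes with the smallest p on the higher side, animal 25 was the lowest of its group for 8 and the highest for 4. Endou, a poly(U)-specific endoribonuclease, had signals of 769, 1035, 2995 and 1012 in 144 h animals, against 179, 125, 290 and 89.9 in 24 h animals. All 144 h animals were above all 24 h animals, with animal 25 the highest, and the log2 difference was 2.87 ± 0.69 (SE; limma adjusted p = 0.58) and 2.45 without animal 25. Bbox1, the last enzyme of carnitine synthesis, had 1045, 1884, 556 and 1766 in 144 h animals, against 284, 532, 199 and 366 in 24 h animals (1.81 ± 0.56), without overlap, while another probe set of it gave 0.98 ± 0.83. Acsm3, a medium-chain acyl-CoA synthetase, had 542, 1032, 291 and 1110 in 144 h animals, against 178, 291, 118 and 316 in 24 h animals (1.56 ± 0.50). Acsbg1, a long-chain acyl-CoA synthetase, had 478, 402, 187 and 520 in 144 h animals, against 39.7, 68.7, 21.2 and 169 in 24 h animals (2.36 ± 0.73). Animal 25 was the lowest 144 h animal for Bbox1, Acsm3 and Acsbg1.

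Other genes of the higher side split into those low and those high in animal 25. Ccna1, cyclin A1, had 435, 474, 216 and 749 in 144 h animals, against 27.1, 172, 56 and 135 in 24 h animals (log2 difference 2.20 ± 0.67, SE). C16h10orf53 had 4640, 10240, 2496 and 11306 in 144 h animals, against 1244, 1666, 838 and 1543 in 24 h animals (2.23 ± 0.69). Both were lowest in animal 25 within their group and without overlap, and another probe set of Ccna1 gave 1.36 ± 0.54. Tbcel, a tubulin-binding cofactor-like protein, Zc3h6 and Faxdc2 differed by 1.21, 1.69 and 1.29. They too were lowest in animal 25 within their group, but the groups of Tbcel overlapped. By contrast Fads2b, a fatty acid desaturase-like gene, had 217, 108, 3225 and 84.1 in 144 h animals, against 13.5, 81.9, 3.8 and 19.5 in 24 h animals, so that its log2 difference of 3.04 became 1.92 without animal 25. Mab21l4 and Hecw2, a ubiquitin ligase, were also highest in animal 25, with differences of 1.84 and 2.08 that became 1.39 and 1.80 without it, and another probe set of Hecw2 gave 0.24 ± 0.69. With array weights Endou, Zc3h6, Faxdc2, Bbox1 and C16h10orf53 passed, 5 of these 12 genes, and on the lower side all 12 genes passed. Of all probe sets 0.298% did. The 12 genes of each side were picked by the smallest p of the same comparison on the same arrays. Their counts are therefore no independent support.

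**Figure D3:**
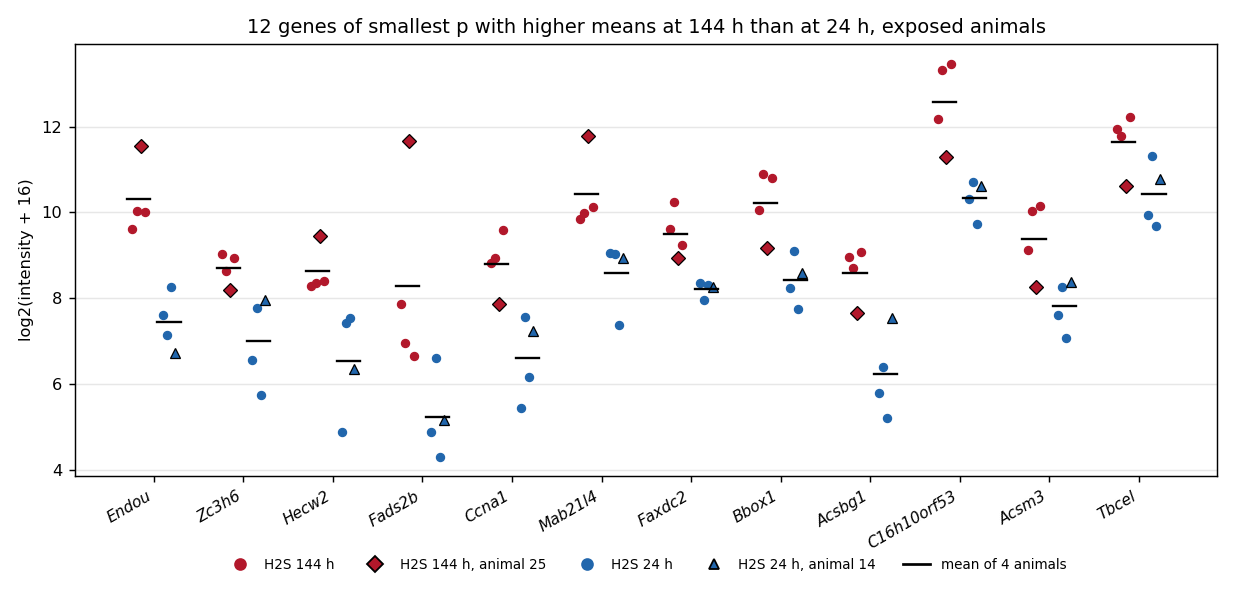
Log2(intensity + 16) of the 12 genes with the smallest unadjusted p among those higher at 144 h, in each exposed animal at 144 h (left of each pair) and 24 h (right), with lines at group means. Animal 25 (diamond) is the highest 144 h animal for Endou, Hecw2, Fads2b and Mab21l4 and the lowest for the other 8 genes, and the groups overlap for Acsm3 and Tbcel only.

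Squamous genes had higher means at 144 h with array 25 in the group and mostly lower means without it. These genes build the cornified layer of stratified epithelium and are normally low in respiratory lining. Of 48 listed genes, 24 were measured, 21 of them with higher means at 144 h, with a median log2 difference of 0.92. Without animal 25 the filter kept 18 of the list, 6 with higher and 12 with lower means, and the median was -0.19. The level of the list was -1.88, -1.85, 2.24 and -2.21 in 144 h animals 23, 24, 25 and 26, against -1.96, -2.01, -1.78 and -1.64 in 24 h animals 11, 12, 13 and 14. Apart from animal 25, the 144 h animals lay in or near the range of the 24 h animals.

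Single genes show how far array 25 stood apart. Krt10, a keratin of the layers above the basal layer, had signals of 296, 357, 44867 and 376 in 144 h animals 23, 24, 25 and 26, against 517, 302, 449 and 504 in 24 h animals. Sprr1a, a cornified envelope precursor, had 26.6, 60.6, 81140 and 88.3 in 144 h animals, against 13.4, 21.9, 98.1 and 182 in 24 h animals. Krtdap, a keratinocyte differentiation-associated protein, had 2.85, 7.35, 34812 and 37.5 in 144 h animals, against 12.3, 11.9, 128 and 31.2 in 24 h animals. These 3 genes were singled out after their values were seen. Spink5, a protease inhibitor of the cornified layer, had 70.1, 59.1, 12949 and 50.9 in 144 h animals, against 77.7, 38.4, 31.5 and 80.3 in 24 h animals, a log2 difference of 1.98 ± 1.19 (SE) in which only animal 25 was high. Scel and Grhl3, an envelope protein and a transcription factor of barrier formation, had 5976 and 1037 in animal 25 and no more than 276 and 120 in the other 144 h animals. Tgm3, a transglutaminase that cross-links the envelope, was the exception, with 216, 186, 356 and 116 in 144 h animals, against 58.1, 20, 156 and 18.1 in 24 h animals, a difference of 1.80 ± 0.68 (SE) and 1.54 without animal 25.

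Across the squamous list, animal 25 was the highest of the 8 animals for 22 of 24 members and the highest of all 23 arrays for 14. Over all 11249 genes, animal 25 exceeded the mean of the other 3 animals of its group by 3 or more log2 units for 76 genes and lay that far below it for 6 genes. The counts for animals 23, 24 and 26 were 4, 2 and 6 higher and 10, 10 and 25 lower. Array 25 had an RNA integrity number of 4.5, and its median correlation with the other arrays was 0.860 against 0.858 to 0.875 for the other 3. Among the 8 arrays compared it was the lowest of its group, 0.879 against 0.897 to 0.907, while array 13 had 0.856. The animal's ciliary genes were the lowest of its group, and its mitotic level of -0.61 was the highest.

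Basal cell genes, of the cells that anchor to the basement membrane and renew the lining, showed no common direction once array 25 was set aside. Of 33 listed genes, 25 were measured, 19 with higher means, and the median log2 difference was 0.26 with array 25 and -0.10 without it. Krt14 had signals of 2752, 1789, 32686 and 1694 in 144 h animals, against 1203, 2772, 870 and 3599 in 24 h animals, and its difference of 1.17 ± 0.95 (SE) became 0.17 without animal 25. Krt5 had 497, 604, 16314 and 911 in 144 h animals, against 727, 1061, 388 and 3738 in 24 h animals, and its difference of 0.50 ± 0.95 turned to -0.66 without animal 25. Krt17, a keratin of wounded epithelium, had 429, 373, 10989 and 398 in 144 h animals, against 485, 327, 372 and 1460 in 24 h animals, and its difference of 0.75 ± 0.94 turned to -0.43 without animal 25. These keratins were highest in animal 14 among the 24 h animals. Lamb3, a chain of the basement membrane laminin, had 1118, 1208, 2344 and 1486 in 144 h animals, against 2283, 2090, 2601 and 3603 in 24 h animals (-0.80 ± 0.39), with animal 25 the highest of its group. Pdpn, podoplanin, differed by -0.89 ± 0.50, and Adh7, an alcohol and retinol dehydrogenase, by 1.36 ± 0.65.

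Keratins and junction genes of the luminal cells had no common direction, with 17 of 35 measured genes higher and a median of -0.03 that ran from -0.27 without animal 25 to 0.16 without animal 23. Krt18, a keratin of simple epithelium, had signals of 8055, 8649, 4860 and 7917 in 144 h animals, against 15836, 9332, 19050 and 16818 in 24 h animals, a log2 difference of -1.03 ± 0.45 (SE) without overlap, and of -0.85 without animal 25. Cldn7, a claudin of tight junctions, had low signals of 47.6, 13.7, 3.33 and 7.35 in 144 h animals, against 78.4, 74, 256 and 102 in 24 h animals (-2.08 ± 0.78). The desmosomal gene Pkp2 differed by -0.44 ± 0.26 and Nectin4 by 0.86 ± 0.49, the second of which became 0.40 without animal 25. Other probe sets of Nectin4 gave 0.83 ± 0.50 and 0.33 ± 0.58.

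Secretory genes did not separate the groups. Of 35 listed genes, 24 were measured, 11 higher and 13 lower, with a median of -0.13 and none at an unadjusted p under 0.05. Without animal 14 the median turned to 0.11, and it also turned positive, up to 0.04, without animal 11, 23 or 26. The gel-forming mucin Muc5ac had 1550, 3275, 632 and 904 in 144 h animals, against 566, 2231, 439 and 564 in 24 h animals (log2 difference 0.79 ± 1.09, SE). Muc5b had 8944, 4366, 4877 and 1520 in 144 h animals, against 8696, 9357, 2382 and 12154 in 24 h animals (-0.75 ± 0.70). For both mucins the groups overlapped widely. Spdef, a factor of goblet cell differentiation, and Clca1 differed by -0.80 ± 0.61 and -1.09 ± 0.78, Scgb3a1, a secretoglobin, by -1.39 ± 0.91 (-0.51 without animal 14), and the cytochrome Cyp2f4 by 0.72 ± 0.53. Another probe set of Clca1 gave -0.44 ± 0.98. Scgb3a1 had low signals of 21.6, 8.89, 24 and 21.7 in 144 h animals, against 90.9, 21.6, 13.6 and 550 in 24 h animals.

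Ion and water transport genes leaned lower at 144 h, 21 of 28 measured, with a median of -0.41 and 2 at an unadjusted p under 0.05. Without animal 26 the median was -0.25. Kcnj15, a potassium channel, had 2039, 2159, 1712 and 3709 in 144 h animals, against 3509, 5988, 4342 and 12355 in 24 h animals, overlapping by animals 26 and 11 (log2 difference -1.33 ± 0.49, SE). Aqp5, the water channel of gland and surface cells, had 1122, 1783, 864 and 1234 in 144 h animals, against 4000, 1422, 2531 and 2707 in 24 h animals (-1.04 ± 0.39), where animal 24 exceeded animal 12. Slc4a4, a bicarbonate transporter, and Ano1, a calcium-activated chloride channel, differed by -0.90 ± 0.46 and -0.77 ± 0.44.

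Metabolic lists had small medians. Glycolysis and hypoxia genes were lower for 22 of 32 measured, with a median of -0.20 that became -0.03 without animal 25. Ldha, lactate dehydrogenase A, had 1615, 1606, 2301 and 2380 in 144 h animals, against 2443, 3781, 4962 and 5045 in 24 h animals (log2 difference -1.0 ± 0.42, SE), without overlap. Pgk1 had 6234, 3737, 8280 and 8277 in 144 h animals, against 12624, 8694, 13768 and 18576 in 24 h animals (-1.03 ± 0.50), also without overlap. The glycolytic enzymes Tpi1 and Pgam1 differed by -1.17 ± 0.42 and -0.63 ± 0.35. Nuclear genes of respiratory complexes I, II, III and V were lower for 51 of 58 with a median of -0.30, and those of cytochrome c oxidase for 18 of 21 with a median of -0.23. None of these respiratory genes had an unadjusted p under 0.05. Sqor, which oxidizes sulfide in mitochondria, had 1633, 1435, 1809 and 1481 in 144 h animals, against 1303, 1847, 1057 and 1914 in 24 h animals, a difference of 0.09 ± 0.49.

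Xenobiotic enzymes, which are abundant in nasal lining, were higher for 26 of 44 measured genes with a median of 0.18. Fmo2, a flavin monooxygenase, had 7306, 7106, 5263 and 7375 in 144 h animals, against 3480, 4944, 822 and 3431 in 24 h animals (log2 difference 1.34 ± 0.49, SE), without overlap, and its other probe sets gave 0.86 and 0.58. Ces1d, a carboxylesterase, had 7480, 9171, 5498 and 7609 in 144 h animals, against 3431, 7402, 872 and 3795 in 24 h animals (1.27 ± 0.48). Sult1c2, a sulfotransferase, and Cyp1b1, a cytochrome P450, differed by 1.85 ± 0.90 and -1.01 ± 0.49. Animal 13, lowest of all for the ciliary genes, was also the lowest of the 8 for 19 of the 44 members.

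The unfolded protein and integrated stress list was lower for 28 of 33 members with a median of -0.35, which ran from -0.48 to -0.30 with 1 exposed animal left out, and none of its members had an unadjusted p under 0.05. In air its median was 0.34, with 23 of 33 higher, and the exposed step minus the air step had a median of -0.70. The medians of the NRF2 list (0.13), heat shock list (-0.08), immediate-early list (0.05), p53 list (0.14), cytokine list (0.18) and interferon list (0.08) lay within the middle 50% of all genes (-0.27 to 0.23). Hmox1, heme oxygenase 1, had 345, 405, 1257 and 387 in 144 h animals, against 330, 459, 256 and 483 in 24 h animals, and its difference of 0.45 became 0.03 without animal 25. Cdkn1a, the cell cycle inhibitor p21, had 1466, 1184, 1560 and 3016 in 144 h animals, against 478, 1479, 578 and 1223 in 24 h animals (log2 difference 0.99 ± 0.54, SE), with animals 12 and 14 inside the 144 h range, and another probe set gave 0.10 ± 0.77. Atf3, a stress-induced factor, differed by 0.50 ± 0.49. The remaining lists had medians of 0.22 for nasal gland secretions, -0.17 for repair genes, -0.12 for sulfide oxidation, -0.22 for ribosome biogenesis, -0.14 for ribosomal proteins, -0.10 for the proteasome, 0.08 for clock genes and 0.05 for the Notch pathway. Marker lists of other cells had medians of 0.16 for leukocytes, 0.20 for stroma and vessels, 0.23 for cartilage and bone, -0.13 for olfactory epithelium and 0.16 for blood. Leaving out 1 exposed animal turned the sign of the median for 13 of the 34 lists, among them nasal gland secretions (-0.68 without animal 12), sulfide oxidation (0.21 without animal 14), repair (0.07 without animal 23), p53 (-0.02 without animal 25), immediate-early (-0.10 without animal 25), leukocytes (-0.05 without animal 23), olfactory epithelium (0.10 without animal 11), clock genes (-0.04 without animal 12) and the proteasome (0.01 without animal 14).

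**Figure D4:**
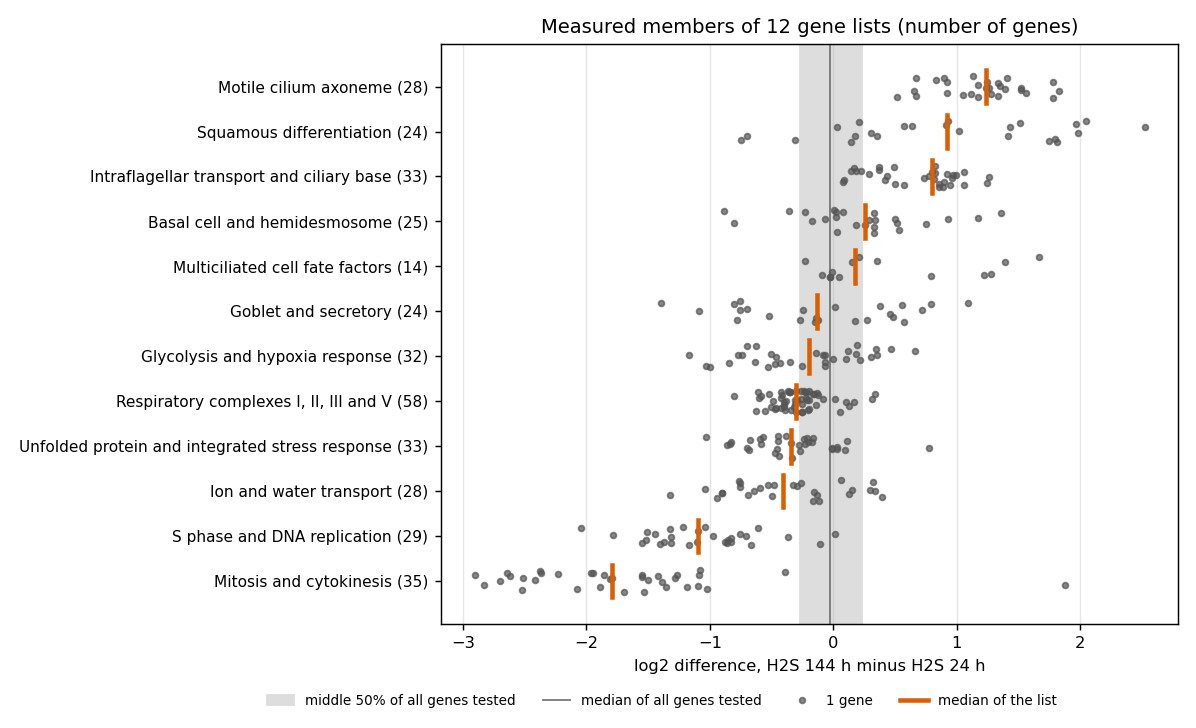
Log2 difference (H2S 144 h minus H2S 24 h) of each measured member of 12 gene lists, with the list median, against the median (-0.02) and middle 50% of all 11249 genes. Mitosis and S phase members lie to the left with medians of -1.79 and -1.09, and axonemal members all lie to the right with a median of 1.24.

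The same interval in air animals served as a background for time, and the difference between the exposed and the air step was tested. Between 144 h and 24 h in air, 0 of 19822 probe sets passed (0%, smallest limma adjusted p 0.103, 1660 at an unadjusted p under 0.05), and the median of all genes was 0.10. Mitosis members had a median of -0.40 in air, with 26 of 35 lower (42.3% of all genes were), and S phase members a median of 0.00, with 15 of 29 lower. Axonemal members had a median of 0.54 in air, with 26 of 28 higher (57.7% of all genes were), and transport members 0.14, with 24 of 33 higher. No probe set passed for the exposed step minus the air step (0%, smallest limma adjusted p 0.946, 929 at an unadjusted p under 0.05), so no gene's step was shown to differ between exposed and air animals. The median of that difference was -1.23 for mitosis members, 32 of 35 of them negative, and -0.87 for S phase members, 26 of 29 negative, where 57.9% of all genes were negative and their median was -0.14. It was 0.65 for axonemal members, 24 of 28 positive, and 0.41 for transport members, 24 of 33 positive, where 42.1% of all genes were positive. Of the named genes, the smallest unadjusted p for this difference were those of Upk3bl1 (-3.19 ± 0.79, SE), Acsm3 (2.64 ± 0.71), Zc3h6 (2.23 ± 0.63), Tk1 (-1.82 ± 0.52) and Fads2b (4.15 ± 1.28). Of the air arrays, 18 and 22 stood apart, with median correlations with the other arrays of 0.408 and 0.685. Their Cre spike-in control signals were 116 and 27.0 times the median of all arrays. Air animal 18 had the highest 24 h air signals for Fads2b, 441 against 30 to 91.1, and Zc3h6, 698 against 178 to 312. It was also highest for Acsm3, 1017 against 224 to 514. For Tk1 it was lowest, 176 against 214 to 489, and for Upk3bl1 its 28.4 lay between 9.49 and 42.9 of the others. Without arrays 18 and 22 the number of probe sets that passed for the exposed step minus the air step was also 0. The part of these arrays in the step differences of the named genes was not tested.

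The effect of each exposed animal on the list medians was small beside the mitosis difference and large beside the squamous one. Leaving out 1 animal at a time, the mitosis median ran from -2.03 to -1.41 and the S phase median from -1.27 to -0.79, and both were nearest to 0 without animal 14, whose treatment field disagrees with its group. Without animal 25 these medians were -1.96 and -1.27, so that neither rested on that array. The axonemal median ran from 0.75 to 1.56, the transport median from 0.46 to 1.01 and the squamous median from -0.19 to 1.44. The number of probe sets that passed was 0 in each of these 8 fits. With array weights and without animal 25, an alternative chosen after seeing the data, 147 probe sets passed (0.745%), 51 higher and 96 lower. They held 108 represented genes, including all 47 that had passed with array weights on all arrays, with 22 of 35 mitosis members and 10 of 29 S phase members lower, and 3 of 28 axonemal and 2 of 33 transport members higher. With array weights and without air animals 18 and 22, also added later, 48 probe sets passed (0.252%), 6 higher and 42 lower. The members of the axonemal list that passed with array weights without animal 25 were Drc3, Armc3 and Cfap69. Those of the transport list were Dync2h1 and Bbs2. None of these list members passed with array weights on all arrays. Cfap69 was named after its value was seen. Their log2 differences ran from 1.10 for Bbs2 to 2.14 for Drc3, and the limma adjusted p of Drc3 was 0.0465.

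**Figure D5:**
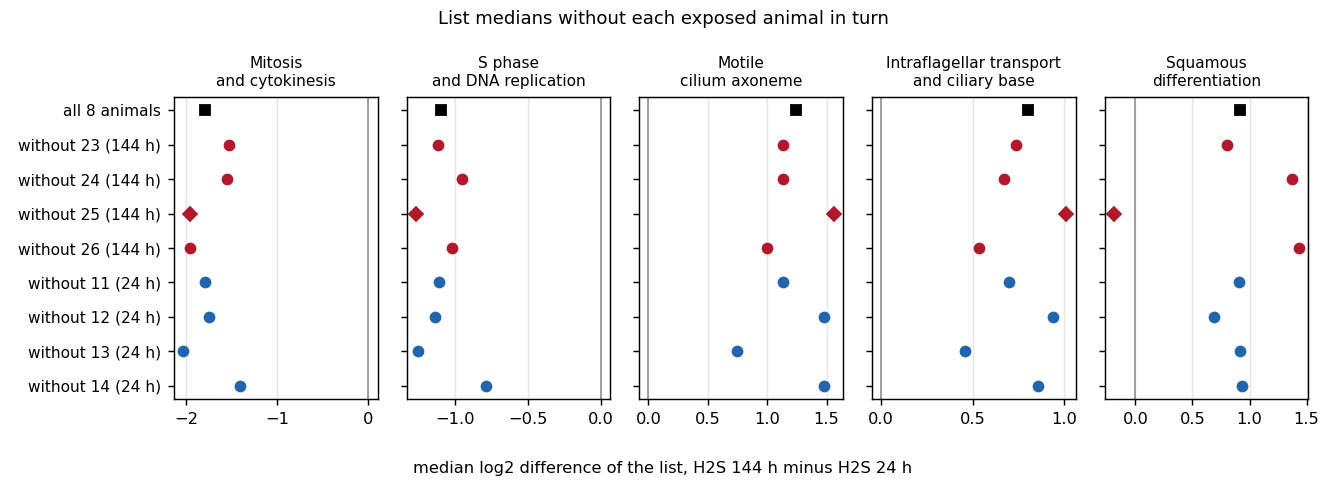
Median log2 difference (H2S 144 h minus H2S 24 h) of 5 gene lists with all 8 exposed animals and without each animal in turn. Without animal 25 (diamond) the squamous median is -0.19 against 0.92 with all animals, while the mitosis median stays between -2.03 and -1.41 in all 8 cases.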

How the data were processed

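Expression was measured on 23 Affymetrix Rat230_2 arrays, 1 animal each. The deposited values are intensity on a linear scale, made with GCOS 1.0 per the submitters' processing notes. Their 2% trimmed mean was about 500.2 on each array. Here log2 of the intensity plus 16 was used, which understates changes of low genes. Probe sets above their own array's median on at least 3 arrays were kept (19822 of 31099, with 57 control probe sets left out). For each gene the brightest kept probe set naming a single symbol was used. Limma 3.58.1 in R 4.3.3 fitted 1 mean per group over all 23 arrays, two-sided, and was tested on simulated data. Named genes were the 12 with the smallest p in each direction whose higher group mean was at least 7, up to 4 members of a described list, a fixed set and 6 singled out later. The members and lists were chosen with earlier results of these data known. No source pairs animals or states a shared litter, so p-values measure the spread between these animals. Alternatives tried were array weights, no filter or one at the 75th percentile, pseudocounts of 64 and 1, median centring, quantile normalization, limma's robust and trended variance, RNA integrity as a covariate or a minimum of 3, only the groups compared, arrays left out, the array median as a covariate and the mean of a gene's probe sets.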

Additional observations from a re-analysis of the deposited data

Results flagged for a closer look

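In groups of 4, the highest or lowest animal was set against the others by Dixon's ratio, the gap to its neighbour over the group's range, with 0.829 as the critical value. Of 246 groups tested, 30 exceeded it, where chance gives about 5%, and named genes and lists are not independent of each other. The groups include those of the 6 genes singled out after their values were seen. Among these are Krt10, Sprr1a and Krtdap, whose ratios are therefore values and no test. For this reason the count of 30 cannot be read against the 5%. The causes were not tested.

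Animal 25 was the highest of the 144 h animals for the squamous and basal genes Krt14 (0.837), Krt5 (0.829), Krt17 (0.96), Krt10 (0.954), Sprr1a (0.881), Krtdap (0.861), Scel (0.895), Grhl3 (0.886) and Spink5 (0.952). It was also highest for Nectin4 (0.864), Hecw2 (0.891), Mab21l4 (0.852) and Hmox1 (0.878), and for the levels of the squamous (0.919), basal (0.857) and ribosome biogenesis (0.91) lists. It was the lowest of its group for Bbs2 (0.888), Krt18 (0.846), Fmo2 (0.89) and the axoneme level (0.898). The last of these was 1.00 in animal 25, against 2.40 to 2.56 in the other 3.

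Other 144 h animals stood apart in 3 cases. Animal 24 was lowest for Scgb3a1 (0.868), whose signals were low in all 144 h animals, from 8.89 to 24. It was highest for the ion and water transport level (0.873). Animal 26 was lowest for the nasal gland level (0.98), at 2.33 against 4.31 to 4.35.

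Among 24 h animals, animal 13 was lowest for Mab21l4 (0.938) and Ccnb1 (0.832), and animal 14 was highest for Tk1 (0.894) and for the sulfide oxidation level (0.834). Animal 12 was highest for Muc5ac (0.845) and for the Actb 3′ to 5′ ratio (0.879), and lowest for the luminal keratin and junction level (0.835).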

How the results depend on the processing

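No probe set passed for H2S 144 h against H2S 24 h in the main setting, nor in 15 of the 16 settings chosen beforehand or the fit of the exposed arrays only, added later. With array weights 59 passed, and, added after seeing the data, 147 with array weights without animal 25 and 48 with array weights without animals 18 and 22. For the air step 1 passed with the array median as a covariate and 0 elsewhere, and for the difference between steps 0 in all. Leaving out each animal gave 0 to 0 throughout. No paired analysis was possible because the animal numbers differ between groups and nothing in the labels pairs animals.

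Signs turned for Krt5 with array weights (-0.18), without animal 25 (-0.66), and with array weights without animal 25 (-0.83) or without animals 18 and 22 (-0.18). They turned for Krt17 (-0.43), Krt10 (-0.33) and Sprr1a (-0.022) without animal 25, and for Krt17 (-0.45), Krt10 (-0.31), Hmox1 (-0.00287) and Sqor (-0.034) with array weights without animal 25. Foxj1 turned without animal 26 (-0.10), without animal 13 (-0.06) and without arrays under an RNA integrity number of 3 (-0.31), and Sqor without animal 13 (-0.072) and in the last setting (-0.040). Over the exposed animals left out in turn, differences ran from -0.66 to 1.11 for Krt5, -0.43 to 1.22 for Krt17, -0.10 to 0.43 for Foxj1, -0.072 to 0.21 for Sqor, -0.33 to 2.06 for Krt10 and -0.022 to 3.61 for Sprr1a. The median of all genes between the exposed groups stayed between -0.04 and 0.01 in every setting. With 4 animals a group, the median SE of a difference was 0.485 on the log2 scale.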
